A study of Mus musculus with 19 samples.

Results

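Aldehyde dehydrogenases oxidize aldehydes to carboxylic acids and so both clear reactive aldehydes and make signalling acids such as retinoic acid. The 9 genes described here are Aldh1a1, Aldh1a7, Aldh1a2, Aldh1a3, Aldh1b1, Aldh2, Aldh3a2, Aldh7a1 and Aldh9a1, out of 24210 genes with a symbol in the count table. They form part of the 21 aldehyde dehydrogenase genes found there. For each gene the RefSeq accession with the highest mean count over the 19 libraries was kept, which decided between accessions for Aldh7a1 alone (mean counts of 1.789 and 0.211). Rows were thus chosen by mean count, and levels are given as descriptions. The list was also drawn up with earlier results of these data known, so a count of members that passed a test describes the list and is no independent evidence about the family.

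The members fall into several roles. Aldh1a1, Aldh1a2 and Aldh1a3 encode retinal dehydrogenases, which make retinoic acid, and Aldh1a7 encodes a close relative of Aldh1a1 found in rodents. Aldh2 encodes the mitochondrial enzyme that clears acetaldehyde, and Aldh1b1 encodes a related mitochondrial enzyme. Aldh3a2 encodes the fatty aldehyde dehydrogenase of the endoplasmic reticulum, Aldh7a1 an enzyme of lysine breakdown, and Aldh9a1 an enzyme of carnitine synthesis that oxidizes aminoaldehydes. In blood-forming tissue, high aldehyde dehydrogenase activity in a fluorescent assay is used to isolate stem and progenitor cells, and Aldh2 together with Fanconi anemia repair protects stem cells from aldehyde damage to DNA.

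RNA was measured by poly(A) sequencing in 19 libraries of lineage-negative, Sca-positive, cKit-positive (LSK) cells, the fraction that holds blood stem and multipotent progenitor cells, from C57BL/6 mice and without culture. The 4 wild-type libraries had no treatment. The IDH2-FLT3 groups carried Idh2 R140Q and Flt3-ITD, had acute myeloid leukemia, and received vehicle (3 libraries) or AG-221, an inhibitor of mutant IDH2 (4 libraries). AG-221 went in by oral gavage, 2 times a day over 4 to 5 weeks. The dose was 100 mg/kg in single-agent work and 40 mg/kg in combination work, and the labels do not say which applied to a library. The TET2-FLT3 groups carried Tet2-/- and Flt3-ITD (spelled Flt3-IDT in the genotype label), also had leukemia, and received vehicle (4 libraries) or 5-Aza (4 libraries). 5-Aza, a hypomethylating agent, was given in 4 cycles of 21 days, each with 5 days of intraperitoneal doses of 5 mg/kg; the series text also gives it the name decitabine, which is a different compound. All 4 leukemic groups thus share Flt3-ITD. The wild-type animals received no vehicle, so they differ from each of these groups in genotype, disease and treatment together. The labels used here give no age, and no driver for the alleles.

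Depth ranged from 9635795 to 20383132 counted reads a library. The deepest were V3-2 (IDH2-FLT3 vehicle) and V5-2 (TET2-FLT3 vehicle), whose names resemble those of V3 and V5; the labels do not say how they are related. Their counts differed from those of V3 and V5 by more than counting error, so they are not the same library deposited again, but whether they come from the same animals was not tested. All were kept as separate libraries. Replicate libraries are not stated to come from separate animals, so the spread behind each p-value may be technical. The sort could not be checked from Kit and Ly6a (Sca-1), since Kit had 4 reads and Ly6a none over all libraries. Both have several accessions, and of the accessions of such genes 61.6% had no reads, against 18.7% for genes with 1 accession. The summed level of 18 stem cell markers, in CPM (counts scaled to a common library depth), was 1152 to 1667 in wild type and 103 to 256 in IDH2-FLT3 vehicle. AG-221 libraries had 503 to 855, TET2-FLT3 vehicle libraries 406 to 687 and 5-Aza libraries 671 to 1182 CPM. The summed level of 18 granulocyte-monocyte progenitor markers was 4243 to 16921 CPM in wild type and 24679 to 118751 in IDH2-FLT3 vehicle. AG-221 libraries had 12081 to 25583, TET2-FLT3 vehicle libraries 10635 to 15879 and 5-Aza libraries 10207 to 11540 CPM. In these bulk samples fewer cells of a type and less RNA per cell cannot be told apart.

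Aldh1a1 and Aldh1a7 lie next to each other on chromosome 19 on opposite strands, with no other gene of the RefSeq table starting or ending between them. The 250 bases before the inner of the 2 annotated starts of Aldh1a1 and before the start of Aldh1a7 are shown because these genes turned out to carry the largest fold differences among the members. Sequences are from RefSeq, GRCm38.p6, at chr19:20601718-20601967 on the plus strand for Aldh1a1 and chr19:20727557-20727806 on the minus strand for Aldh1a7, each read 5′ to 3′ along its gene. Capitals mark the longest run of bases that both share, 65 bases long.
Aldh1a1: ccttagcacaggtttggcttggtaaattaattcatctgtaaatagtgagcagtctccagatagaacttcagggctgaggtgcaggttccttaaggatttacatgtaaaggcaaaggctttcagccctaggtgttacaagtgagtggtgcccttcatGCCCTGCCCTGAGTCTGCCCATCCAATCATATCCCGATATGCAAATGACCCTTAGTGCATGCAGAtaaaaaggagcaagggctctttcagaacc
Aldh1a7: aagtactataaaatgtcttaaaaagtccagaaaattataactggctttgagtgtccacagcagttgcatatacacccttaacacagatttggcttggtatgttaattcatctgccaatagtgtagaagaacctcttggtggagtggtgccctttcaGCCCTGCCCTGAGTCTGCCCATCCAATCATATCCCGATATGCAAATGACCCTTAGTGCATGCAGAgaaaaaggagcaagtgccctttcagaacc
The shared run reaches from 94 to 30 bases before the start in both. Over the last 75 bases, 72 (96.0%) were identical. The outer start of Aldh1a1 shared 19 of these 75 bases with Aldh1a7, and the inner start shared 20 with Aldh1b1. Of 8 short motifs searched on both strands (the TATA box TATAAA, the CCAAT box, the Sp1 box GGGCGG, the E-box CACGTG, the GATA motif AGATAA, the nuclear receptor motif AGGTCA, the ETS motif GAGGAA and a further E-box, CAGGTG), the pair shares a CCAAT at 72 to 68 bases before the start, inside the run. CCAAT occurs in 33.8% of the 32851 promoter windows of the table. AGATAA lies at 32 to 27 bases before the start in Aldh1a1 and overlaps the end of the run; Aldh1a7 has no match there. AGATAA occurs in 9.99% of windows. TATAAA, found in 12.4% of windows, occurs in Aldh1a7 alone, 244 to 239 bases before its start. These matches describe the letters and do not show that any factor binds.

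The promoters taken for 6 members differ in their CG dinucleotides, the sites of DNA methylation. Chromosome 18, which carries Aldh7a1, was left out of this search, and no window was found for Aldh1a3 or Aldh2. Aldh1a2 has 40 CG pairs in 250 bases, more than 98.7% of windows. Aldh3a2 has 18, Aldh9a1 has 8 and Aldh1b1 has 4, while the table's median is 6. The Aldh1a1 window shown above has 1 CG pair and the Aldh1a7 window also has 1. No methylation was measured in these libraries.

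Compared per transcript length, Aldh2 was the most abundant member. Its deposited FPKM (fragments scaled by transcript length and by library depth) ranged from 86.3 to 474.02 over the 19 libraries and ranked highest of the 9 in 18 of them. Aldh9a1 came next at 48.1 to 113 FPKM and ranked highest in the remaining library. The lowest and highest FPKM were 0.0733 and 37.6 for Aldh1a1, 4.74 and 43.5 for Aldh1b1, and 6.92 and 28.2 for Aldh3a2. As a ratio of highest to lowest, Aldh1a1 thus spanned the widest range of these 3, and its rank among the members ran from the third to the seventh. Aldh1a7 did not exceed 3.64 FPKM, and Aldh1a2, Aldh1a3 and Aldh7a1 stayed under 1 FPKM in every library.

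**Figure D1:**
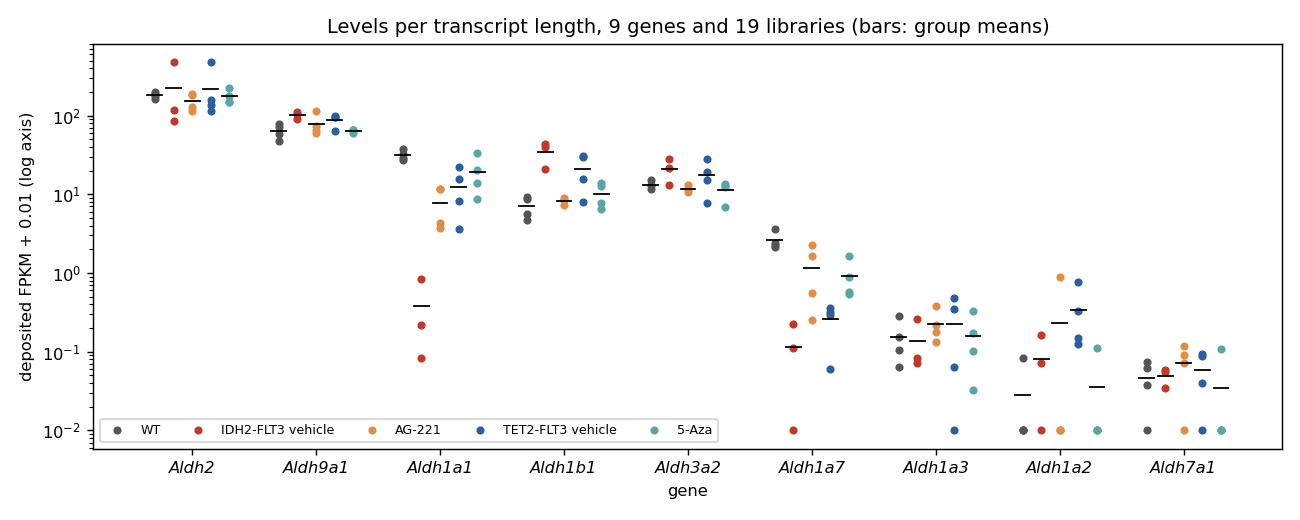
Deposited FPKM plus 0.01 on a log axis for the 9 members, with 1 point per library coloured by group and bars at group means. Aldh2 and Aldh9a1 sit at the top in all groups, and Aldh1a1 spreads from 0.0733 FPKM in an IDH2-FLT3 vehicle library to 37.6 FPKM in a wild-type library.

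Of the 9 members, 7 passed the filter on low counts and 2 did not. Aldh1a3, with a mean count of 8.0, was the lowest to pass, and Aldh1a2, with 4.474, was the highest to fail. Each member below is given in CPM after normalization by trimmed mean of M values (TMM), and was tested with edgeR's quasi-likelihood test, with p-values adjusted by Benjamini-Hochberg over all 11830 accessions tested. A member was called at an adjusted p under 0.05.

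Among the retinal dehydrogenases, Aldh1a1 had the largest difference between groups. In wild type it stood at 69.0, 53.9, 60.3 and 44.8 CPM (57.0 ± 10.2, SD, n = 4). In IDH2-FLT3 vehicle cells it stood at 0.506 CPM in V3, 0.144 in V3-2 and 1.76 in V9 (0.805 ± 0.850, SD, n = 3), which rests on 6, 3 and 22 reads. Every library of the mutant group lay far below every wild-type library. The fitted difference was -6.20 ± 0.84 (SE) on the log2 scale, 73.6-fold lower, with an adjusted p of 9.73e-05. It became -7.56 without V9, the highest of the vehicle libraries.

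With AG-221, Aldh1a1 stood at 7.45 CPM in AG1, 8.99 in AG13, 21.7 in AG8 and 23.8 in AG12 (15.5 ± 8.47, SD, n = 4). All 4 libraries lay above the 3 vehicle libraries and below the 4 wild-type libraries. Against vehicle Aldh1a1 rose by 4.33 ± 0.78 (20.1-fold, adjusted p = 0.00465), and by 5.69 without V9. Against wild type the difference was -1.88 ± 0.58 and was not called (adjusted p = 0.103), although DESeq2 called it (adjusted p = 0.0271).

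In TET2-FLT3 vehicle cells Aldh1a1 stood at 41.3 CPM in V1, 47.6 in V19, 7.70 in V5 and 14.1 in V5-2 (27.7 ± 19.7, SD, n = 4). V19 lay within the wild-type range and the other libraries lay below it. The fitted difference from wild type was -1.05 ± 0.57 and was not called (adjusted p = 0.242), although limma on log2(FPKM + 1) called it (-1.51, adjusted p = 0.0329). With 5-Aza it stood at 70.0 CPM in AZ10, 28.0 in AZ11, 41.1 in AZ16 and 20.3 in AZ17 (39.8 ± 21.8, SD, n = 4), which overlapped both vehicle and wild type. The 5-Aza difference from vehicle was 0.53 ± 0.57 (adjusted p = 0.753). The vehicle arms of the leukemias differed in Aldh1a1 by -5.15 ± 0.80 (IDH2-FLT3 minus TET2-FLT3, adjusted p = 0.00152), with no overlap of the libraries, and by -6.51 without V9. From high to low, the group means ran from wild type through 5-Aza, TET2-FLT3 vehicle and AG-221 to IDH2-FLT3 vehicle, and only the last step separated neighbours whose libraries did not overlap.

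Aldh1a7 was far less abundant than Aldh1a1. In wild type it stood at 4.44, 4.30, 6.77 and 3.55 CPM (4.77 ± 1.39, SD, n = 4). In IDH2-FLT3 vehicle cells it stood at 0.253 CPM in V3, 0.433 in V3-2 and 0 in V9, from 3, 9 and 0 reads. In TET2-FLT3 vehicle cells it stood at 0.136 CPM in V1, 0.672 in V19, 0.743 in V5 and 0.492 in V5-2, from 1 to 12 reads a library. Both vehicle groups lay wholly below wild type. Aldh1a7 fell by 4.24 ± 0.90 on the log2 scale in IDH2-FLT3 vehicle (adjusted p = 0.00299), and without V3-2 by 5.15. It also fell by 3.16 ± 0.75 in TET2-FLT3 vehicle (adjusted p = 0.012). AG-221 libraries gave 1.11 CPM in AG1, 4.63 in AG12, 3.42 in AG13 and 0.462 in AG8. The rise over vehicle was 3.26 ± 0.87 (adjusted p = 0.0278), lost without V3, V3-2, AG12 or AG13 (adjusted p from 0.0526 to 0.0901; the value without V3-2 was 4.16), and AG12 lay within the wild-type range while the other 3 lay below it. With 5-Aza the values were 1.13 CPM in both AZ10 and AZ11, 1.82 in AZ16 and 3.88 in AZ17. All 4 lay above the TET2-FLT3 vehicle libraries, but the difference of 1.90 ± 0.73 was not called (adjusted p = 0.265).

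Since Aldh1a1 and Aldh1a7 are similar in sequence, reads could in part be assigned to the wrong one. Of 50-base stretches of the RefSeq transcripts, 7.53% of those of Aldh1a1 also occurred in Aldh1a7, and of 100-base stretches 0.0512% did. Their mean FPKM stood in a ratio of 12.1 in wild type, 3.46 in IDH2-FLT3 vehicle and 6.75 in AG-221 libraries. In TET2-FLT3 the ratio was 50.2 under vehicle and 21.1 under 5-Aza. These ratios of group means differed, but libraries within a group differed as well. Aldh1a1 and Aldh1a7 stood at 4.30 and 1.61 FPKM in AG13 and at 11.6 and 0.244 in AG8. In TET2-FLT3 vehicle they stood at 3.61 and 0.344 FPKM in V5 and at 15.5 and 0.0504 in V1. The IDH2-FLT3 vehicle ratio rests on 31 reads of Aldh1a1 and 12 of Aldh1a7. Whether reads of the pair were assigned to the wrong gene was not tested. The RefSeq table also places 2 long noncoding genes and 1 pseudogene within the span of Aldh1a1. Whether reads from these entered its count was not tested.

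The other retinal dehydrogenases were close to the detection limit. Aldh1a3 had 22 reads in wild type, 19 and 33 in the IDH2-FLT3 groups (vehicle, then drug) and 53 and 25 in the TET2-FLT3 groups, and was called in none of the comparisons. Aldh1a2 had 2, 9, 21, 50 and 3 reads in the same order and was not tested after filtering. All 21 reads of the AG-221 group came from AG13, and 35 of the 50 in TET2-FLT3 vehicle came from V5-2. Pooled over a group, its level, as a CPM of assigned reads, was 0.885 in TET2-FLT3 vehicle (95% exact Poisson interval 0.657 to 1.17) and 0.0443 in wild type (0.00536 to 0.160). These intervals cover counting error alone. Aldh1a2 was compared only in the alternatives with no filter and with DESeq2. In both, the 2 members called for TET2-FLT3 vehicle against wild type were Aldh1a7 and Aldh1b1, so Aldh1a2 was not called there.

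**Figure D2:**
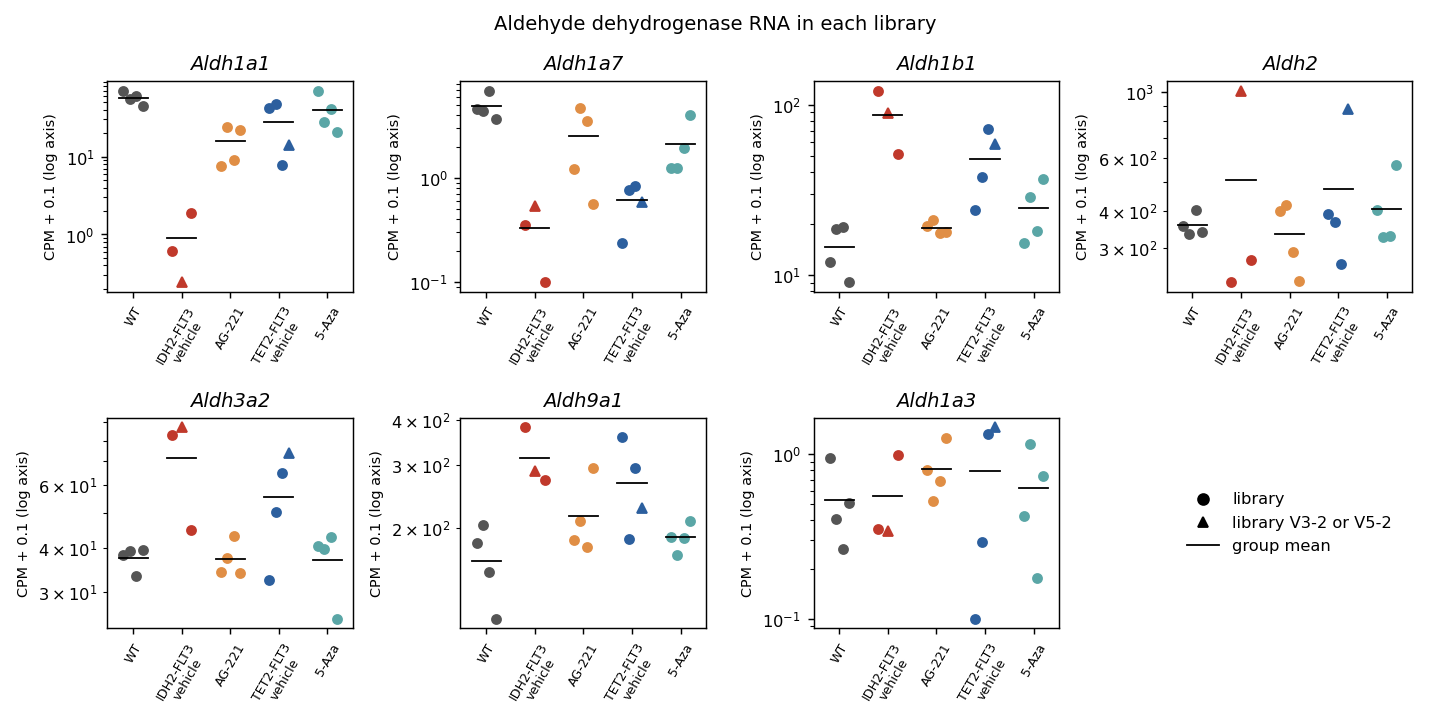
CPM plus 0.1 on a log axis for the 7 tested members, with 1 point per library, triangles for V3-2 and V5-2, and bars at group means. Aldh1a1 in the 3 IDH2-FLT3 vehicle libraries lies below all 16 others, and Aldh2 is highest in V3-2 (1012 CPM) and V5-2 (875 CPM).

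The mitochondrial enzyme Aldh1b1 differed in the direction opposite to Aldh1a1. It stood at 11.8, 18.4, 18.9 and 8.94 CPM in wild type (14.5 ± 4.93, SD, n = 4). It stood at 120.7 CPM in V3, 88.8 in V3-2 and 51.3 in V9 of IDH2-FLT3 vehicle (86.9 ± 34.7, SD, n = 3). TET2-FLT3 vehicle libraries gave 23.9 CPM in V1, 37.5 in V19, 72.0 in V5 and 58.4 in V5-2 (48.0 ± 21.4, SD, n = 4). Neither vehicle group overlapped wild type. Aldh1b1 rose by 2.58 ± 0.39 in IDH2-FLT3 vehicle (5.98-fold, adjusted p = 0.000252) and by 1.73 ± 0.37 in TET2-FLT3 vehicle (3.31-fold, adjusted p = 0.00626). Under AG-221 it stood at 19.2 CPM in AG1, 21.0 in AG12, 17.5 in AG13 and 17.7 in AG8, the tightest spread of any group. It fell by 2.20 ± 0.39 on the log2 scale against vehicle (4.61-fold, adjusted p = 0.00405), and the AG-221 libraries overlapped wild type. With 5-Aza it stood at 15.2, 28.5, 17.9 and 36.5 CPM, and the difference from vehicle of -0.97 ± 0.36 was not called (adjusted p = 0.242).

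Aldh2, the other mitochondrial enzyme, was called in none of the comparisons. Wild type gave 354.5, 334.3, 400.6 and 338.9 CPM (357 ± 30.3, SD, n = 4). The IDH2-FLT3 vehicle libraries gave 229.9 CPM in V3, 273 in V9 and 1012 in V3-2, so 1 library set the group mean of 505. In TET2-FLT3 vehicle they gave 389.6 CPM in V1, 367 in V19, 265 in V5 and 875 in V5-2. V3-2 held 4.40 times the level of V3, and V5-2 held 3.29 times that of V5; of all accessions tested, 1.97% were at least as high in both pairs. The fitted difference of IDH2-FLT3 vehicle from wild type was 0.50 ± 0.44 with these libraries and -0.49 without them. The AG-221 libraries lay between 231 and 416 CPM and the 5-Aza libraries between 326 and 568 CPM, both overlapping wild type.

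**Figure D3:**
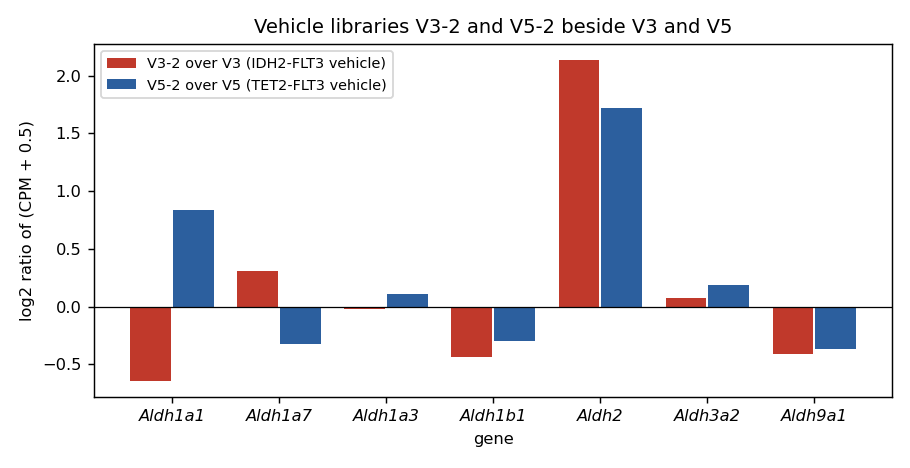
Log2 ratio of CPM plus 0.5 for V3-2 over V3 and for V5-2 over V5, in bars that start at 0, for the 7 tested members. Aldh2 stands out in both pairs (2.14 and 1.72), while Aldh1b1 and Aldh9a1 were lower in both.

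Aldh3a2 and Aldh9a1 showed smaller differences. Aldh3a2 stood at 33.3 to 39.4 CPM in wild type (37.5 ± 2.86, SD, n = 4) and at 82.9, 87.1 and 44.7 CPM in V3, V3-2 and V9. It rose by 0.93 ± 0.28 in IDH2-FLT3 vehicle (1.91-fold, adjusted p = 0.0254) with no overlap. That call was lost without wt1, wt3, V3 or V3-2 (adjusted p of 0.0542, 0.0704, 0.103 and 0.110), without V3-2 and V5-2 together (0.0709) and in both FPKM fits (0.227 and 0.237). With AG-221 it stood at 33.8 to 43.2 CPM and fell by 0.95 ± 0.28 against vehicle (adjusted p = 0.0414). Leaving out V3, V3-2, AG1, AG12, AG13 or AG8 ended that call as well (adjusted p from 0.0579 to 0.195), as did leaving out V3-2 and V5-2 together (0.117), no filter (0.0659) and both FPKM fits (0.157). The Aldh3a2 calls passed in 9 and 5 of 16 alternatives, respectively. In TET2-FLT3 vehicle it ranged from 32.3 to 73.9 CPM and with 5-Aza from 25.2 to 42.7 CPM, with no call.

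Aldh9a1 stood at 181.8, 203.5, 150.5 and 111.7 CPM in wild type (161.9 ± 39.9, SD, n = 4) and at 382, 288 and 273 CPM in V3, V3-2 and V9. It rose by 0.96 ± 0.26 in IDH2-FLT3 vehicle (1.94-fold, adjusted p = 0.0157) with no overlap, a call lost without wt4 or V3 (adjusted p of 0.0562 and 0.0932). In TET2-FLT3 vehicle it ranged from 187 to 359 CPM, and the difference of 0.72 ± 0.25 was not called (adjusted p = 0.0687). Neither drug arm differed from its vehicle past the threshold (-0.54 ± 0.27 for AG-221 and -0.50 ± 0.25 for 5-Aza, adjusted p of 0.18 and 0.412). Aldh7a1, the lysine enzyme, had 4 to 10 reads in each of the 5 groups, too few to compare. Like Kit it has several accessions, and the protein-coding gene Phax and the microRNA gene Mir1258 overlap its span in the RefSeq table. Whether reads were lost between accessions or to the overlapping genes was not tested.

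Counted over the members, 5 of 7 were called between IDH2-FLT3 vehicle and wild type, 3 higher and 2 lower, in a comparison where 20.5% of all accessions were called (10.1% higher and 10.4% lower). Between TET2-FLT3 vehicle and wild type 2 of 7 were called, 1 in each direction, where 10.1% of all accessions were (4.43% higher and 5.71% lower). Between AG-221 and its vehicle 4 of 7 were called, 2 in each direction, where 9.68% of all were (4.39% higher and 5.29% lower). These comparisons share control libraries. For Aldh1a1, Aldh1a7, Aldh1b1 and Aldh3a2 the values against wild type in IDH2-FLT3 vehicle were -6.20, -4.24, 2.58 and 0.93, and those with AG-221 against vehicle were 4.33, 3.26, -2.20 and -0.95. When the AG-221 and vehicle libraries were fitted without the other groups, none of the 4 AG-221 calls held (adjusted p from 0.0551 to 0.103), 0 of all accessions were called, and the 4 members had an unadjusted p under 0.05; DESeq2 on all libraries called 4.

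No member was called for 5-Aza against vehicle, where 1.88% of all accessions were called (0.431% higher and 1.45% lower); 3 had an unadjusted p under 0.05 in edgeR, and DESeq2 called 0. None was called by edgeR for AG-221 against wild type (2.71% of all called, 1.04% higher and 1.67% lower; 1 with an unadjusted p under 0.05, and 1 called by DESeq2). None was called for 5-Aza against wild type (1.72% of all called, 0.617% higher and 1.10% lower; 1 with an unadjusted p under 0.05, and 0 called by DESeq2). Between the vehicle arms 1 of 7 was called, Aldh1a1, where 4.28% of all were (1.93% higher and 2.35% lower); fitted with those groups alone its adjusted p was 0.0874. The difference between the drug responses was called for no member, where 0.228% of all accessions were called (0.203% higher and 0.0254% lower); 2 had an unadjusted p under 0.05 and DESeq2 called 1. For Aldh1a1 the AG-221 response exceeded the 5-Aza response by 3.79 ± 0.93 (adjusted p = 0.0954), and leaving out V9 or V5-2 brought the adjusted p to 0.00438 and 0.0409.

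**Figure D4:**
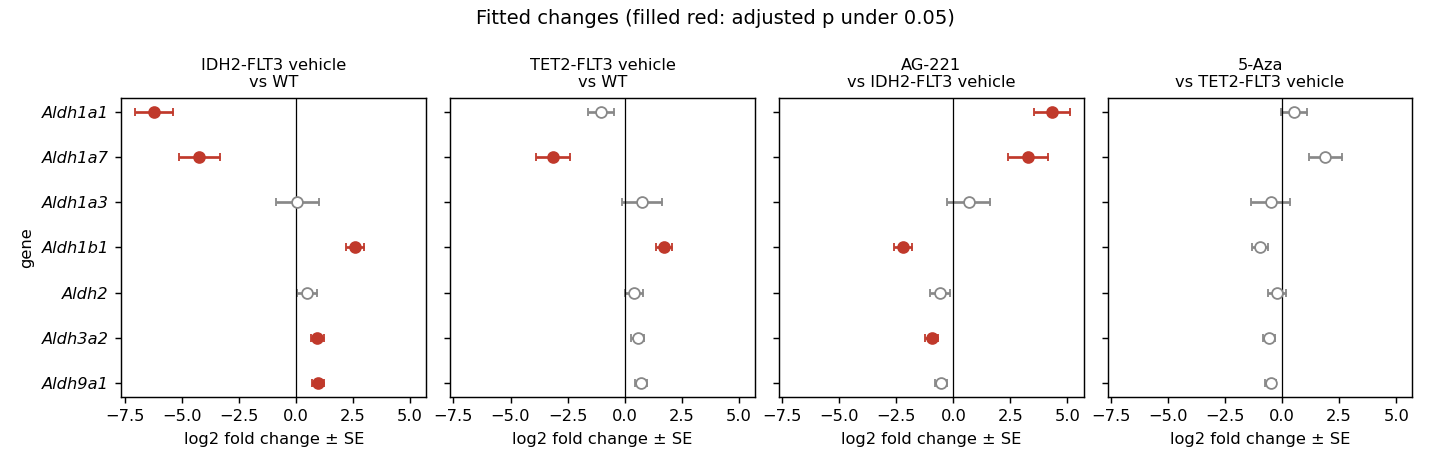
Fitted log2 fold changes with SE bars for the 7 tested members in 4 comparisons, filled red where the adjusted p was under 0.05. Aldh1a1 and Aldh1a7 are lower and Aldh1b1 higher in IDH2-FLT3 vehicle than in wild type, and with AG-221 each of them moved the other way against vehicle.

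In the IDH2-FLT3 groups the levels of Aldh1a1 and of stem cell markers differed in the same direction. Of 18 such markers 14 were tested; 10 were lower and 0 higher in IDH2-FLT3 vehicle than in wild type (10.4% and 10.1% of all accessions). With AG-221 against vehicle 7 were higher and 0 lower (4.39% and 5.29% of all). In TET2-FLT3 vehicle 4 were lower and 1 higher than in wild type (5.71% and 4.43% of all), where Aldh1a1 was not called. Within that group V1 and V5 had marker sums of 411 and 421 CPM but Aldh1a1 at 41.3 and 7.70 CPM. V19 had the highest of both, 687 and 47.6 CPM, and V5-2 had 406 and 14.1 CPM. In 5-Aza libraries both ran in the same order. They were 1182 and 70.0 CPM in AZ10, 945 and 41.1 in AZ16, 830 and 28.0 in AZ11, and 671 and 20.3 in AZ17. For 5-Aza against vehicle 2 markers were higher and 0 lower (0.431% and 1.45% of all), and Aldh1a1 was not called. The AG-221 libraries had sums of 503 to 855 CPM against 406 to 687 in TET2-FLT3 vehicle, while their mean Aldh1a1 was 15.5 against 27.7 CPM. Tek had no reads in any group. Of 16 granulocyte-monocyte progenitor markers tested, 13 were higher and 0 lower in IDH2-FLT3 vehicle (10.1% and 10.4% of all). With AG-221 6 were lower and 0 higher (5.29% and 4.39% of all). Cebpa had no reads in any group. Erythroid marker sums were 2431 to 3164 CPM in wild type, 277 to 697 CPM in IDH2-FLT3 vehicle and 1004 to 2183 CPM in AG-221 libraries. In TET2-FLT3 they were 398 to 832 CPM under vehicle and 992 to 2220 CPM under 5-Aza. Of 13 erythroid markers tested, 11 were lower than in wild type in each vehicle group (10.4% of all in IDH2-FLT3 and 5.71% in TET2-FLT3). In IDH2-FLT3 vehicle 1 was higher (10.1% of all). Against vehicle, 5 were higher and 2 lower with AG-221 (4.39% and 5.29% of all). For 5-Aza against vehicle 6 were higher and 0 lower (0.431% and 1.45% of all). B-cell marker sums were 557 to 745 CPM in wild type and at most 158 CPM in every other library. Ebf1 was at 0 in all 4 leukemic groups. Of 13 B-cell markers tested, 13 were lower in IDH2-FLT3 vehicle and 11 in TET2-FLT3 vehicle (10.4% and 5.71% of all). Dendritic cell marker sums were 1513 to 2292 CPM in wild type, 2517 to 14863 CPM in IDH2-FLT3 vehicle and 4747 to 14421 CPM in TET2-FLT3 vehicle, with Clec9a at 0 in all groups. They were 1145 to 15236 CPM in AG-221 and 620 to 1383 CPM in 5-Aza libraries. Of 14 dendritic markers tested, 8 were higher and 2 lower in IDH2-FLT3 vehicle than in wild type (10.1% and 10.4% of all). In TET2-FLT3 vehicle 9 were higher and 0 lower (4.43% and 5.71% of all). Under 5-Aza 9 were lower and 0 higher than under vehicle (1.45% and 0.431% of all). The part that a change in the mix of cells had in the Aldh1a1, Aldh1a7 and Aldh1b1 results was not tested.

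**Figure D5:**
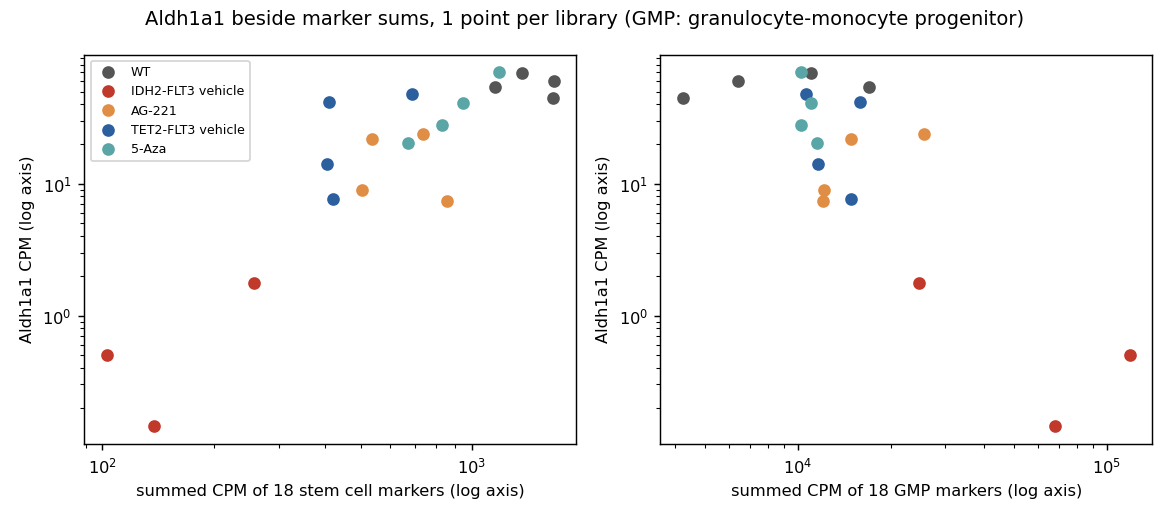
Aldh1a1 CPM against the summed CPM of 18 stem cell markers (left) and of 18 granulocyte-monocyte progenitor (GMP) markers (right), 1 point per library on log axes. The 3 IDH2-FLT3 vehicle libraries hold the lowest Aldh1a1 and the lowest stem cell marker sums (103 to 256 CPM).

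The genes whose log2 CPM ran most nearly parallel to each member over the 19 libraries were found among 7769 genes, as descriptions that also carry the differences between groups and in depth. For Aldh1a1 they were Myct1 (Pearson r = 0.944), Procr (0.933), which encodes a surface receptor used to mark stem cells, and Hemgn (0.929). For Aldh1a7 they were Arhgef12 (0.889), Cldn13 (0.843) and Abhd15 (0.833). For Aldh1b1 they were Diaph2 (0.927), Rassf4 (0.925) and the chemokine receptor gene Cx3cr1 (0.923). For Aldh2 they were Ppp6r1 (0.956), Zmynd19 (0.946) and Rab5if (0.940). Like Aldh2, these varied widely within the vehicle groups. In IDH2-FLT3 vehicle they ranged from 50.9 to 730, 5.99 to 53.1 and 8.18 to 89.0 CPM. In TET2-FLT3 vehicle they ranged from 60.4 to 439, 11.5 to 65.5 and 7.70 to 71.4 CPM. How far V3-2 and V5-2 set these correlations was not tested. For Aldh3a2 the nearest was Erlin2 (0.914), followed by Tm9sf1 and Sh3bp1, and for Aldh9a1 it was Oxnad1 (0.943), followed by Snx1 and Plrg1. For Aldh1a3 the nearest was Bicdl1 (0.722), followed by Acot11 and Plekha5. Among the members, Aldh1a1 ran with Aldh1a7 (r = 0.55) and against Aldh1b1 (-0.78) and Aldh3a2 (-0.68), and Aldh1b1 ran with Aldh3a2 (0.74) and Aldh9a1 (0.69).

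Of the other 12 aldehyde dehydrogenase genes counted, 6 were tested, and 2 of them were called in any comparison. Against wild type 2 of 6 were higher in IDH2-FLT3 vehicle and 1 of 6 in TET2-FLT3 vehicle (10.1% and 4.43% of all accessions). Against vehicle 2 of 6 were lower with AG-221 and 1 of 6 with 5-Aza (5.29% and 1.45% of all). Between the vehicle arms 1 of 6 was higher in IDH2-FLT3 (1.93% of all). Aldh4a1, which encodes the mitochondrial enzyme of proline breakdown, stood at 16.3 to 26.4 CPM in wild type and 43.1 to 112 CPM in IDH2-FLT3 vehicle. It rose by 1.95 ± 0.29 there (adjusted p = 0.000207) and by 1.17 ± 0.27 in TET2-FLT3 vehicle (adjusted p = 0.0106), and fell by 1.35 ± 0.29 under AG-221 (adjusted p = 0.0117). Aldh3b1, which encodes an enzyme for lipid-derived aldehydes, stood at 3.55 to 7.93 CPM in wild type and 21.2 to 76.1 CPM in IDH2-FLT3 vehicle. It rose by 3.23 ± 0.52 (adjusted p = 0.000351) and fell by 1.73 ± 0.49 with AG-221 (adjusted p = 0.0346). Aldh3b1 also fell by 2.20 ± 0.49 with 5-Aza against vehicle (adjusted p = 0.021), the 1 call for 5-Aza among the family genes tested. It was also higher in IDH2-FLT3 than in TET2-FLT3 vehicle, by 2.12 ± 0.50 (adjusted p = 0.0175).

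Genes that act with the members were read from 4 lists. In the retinoid pathway, which supplies and answers to the acid that Aldh1a enzymes make, 11 of 28 genes were tested; 2 were higher and 3 lower in IDH2-FLT3 vehicle than in wild type, where 10.1% and 10.4% of all accessions were. The list's median difference was -0.17, beside 0.02 over all accessions tested. Tgm2, a transglutaminase induced by retinoic acid, fell by 4.98 ± 0.80 in IDH2-FLT3 vehicle (adjusted p = 0.000367) and by 2.88 ± 0.63 in TET2-FLT3 vehicle (adjusted p = 0.00712). Under AG-221 Tgm2 rose by 2.87 ± 0.73 (adjusted p = 0.0232). The corepressor gene Ncor1 fell by 1.33 ± 0.42 and Dhrs9, a short-chain retinol dehydrogenase gene with 7 reads in wild type, rose by 3.96 ± 1.22 in IDH2-FLT3 vehicle (adjusted p of 0.029 and 0.0263). Dhrs9 passed the filter on low counts only through groups other than wild type, so its call is a description. Between AG-221 and vehicle 2 of the 11 were higher and 0 lower (4.39% and 5.29% of all accessions). Between TET2-FLT3 vehicle and wild type 1 of the 11 was lower, where 5.71% of all were, so that count is no result about the list. For 5-Aza against vehicle none was called.

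Of 21 other genes that clear aldehydes and carbonyls 14 were tested. In IDH2-FLT3 vehicle 3 were higher and 1 lower than in wild type (median -0.04). With 20.5% of all accessions called (10.1% higher and 10.4% lower), that is no result about the list. Gsta4, a glutathione transferase active on lipid aldehydes, fell by 2.92 ± 0.48 (adjusted p = 0.000454), and with AG-221 rose by 2.70 ± 0.47 (adjusted p = 0.004). Ptgr1, Akr1a1 and Gstm1 rose by 1.38, 0.90 and 1.33 (adjusted p of 0.0188, 0.0409 and 0.0425). In TET2-FLT3 vehicle 3 were higher and 0 lower (4.43% and 5.71% of all accessions). They were Akr1c12, Akr1c13 and Cbr3 (2.17, 1.49 and 1.59). Cbr3, a carbonyl reductase gene, fell by 2.43 ± 0.50 with 5-Aza (adjusted p = 0.0148), where 1.45% of all were lower. With AG-221 3 were higher and 0 lower (4.39% and 5.29% of all accessions), Gsta4, Akr1c12 (2.75) and Cbr1 (0.97). The Akr1c genes are close relatives, so reads may be shared among them.

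Of 20 Fanconi crosslink repair genes, whose products mend the DNA damage aldehydes cause, 14 were tested. In IDH2-FLT3 vehicle 2 were higher and 0 lower than in wild type (median 0.57), Brca1 by 0.85 ± 0.23 and Fanca by 2.05 ± 0.62 (adjusted p of 0.0125 and 0.0237). That is 2 of 14 where 20.5% of all accessions were called, and so no result about the list. None was called in the other 3 comparisons with vehicle. Of 18 genes for enzymes that make or use the members' substrates 8 were tested, and 3 were higher and 0 lower in IDH2-FLT3 vehicle (median 1.14), where 10.1% of all accessions were higher. Maoa, an amine oxidase gene whose product makes aldehydes, rose by 1.14 ± 0.23 in IDH2-FLT3 vehicle and by 1.41 ± 0.22 in TET2-FLT3 vehicle (adjusted p of 0.00196 and 0.000511). Maob was called in both, with 1 read in wild type, 288 in IDH2-FLT3 vehicle, of which V9 had none, and 92 in TET2-FLT3 vehicle. It thus passed the filter on low counts only through groups other than wild type. Its calls against wild type are descriptions and add no evidence to the list's count. Sgpl1, the sphingosine-1-phosphate lyase gene whose product yields the fatty aldehyde that the Aldh3a2 enzyme oxidizes, rose by 0.94 ± 0.28 and, with AG-221 against vehicle, fell by 1.10 ± 0.28 (adjusted p of 0.0219 and 0.023).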

How the data were processed

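The 19 libraries were sequenced from poly(A) RNA amplified with a low-input SMARTer kit, per the labels' protocols. STAR 2.4.0f1, featureCounts of Subread 1.4.5-p1 and mm9 are named in the submitters' processing notes. The authors deposited raw counts and FPKM values per RefSeq accession. Each FPKM table is a scaling of the counts by library and transcript length: the implied lengths agreed between libraries within a relative tolerance of 0.001. The strand setting is not given in the sources used here, and symbols were found for all but 189 of 33862 accessions, 33485 in the RefSeq table and 188 in GENCODE. Those without a name held 3.47% of counts.

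Libraries were assigned to groups by column names; except for wild type, the columns carry no replicate number. The members, gene lists and tests were chosen with earlier results of these data known. All 9 members were to be named. Of other family genes those called were named, as were up to 4 called genes of smallest p per list and comparison (some are not reported here), and the 3 genes of highest Pearson r to each member among genes with a mean of at least 5 CPM, with a prior count of 2. Counts were filtered with filterByExpr, normalized by TMM and fitted in edgeR 4.0.16 (R 4.3.3) with 5 group means over 19 libraries (14 residual degrees of freedom; biological coefficient of variation 42.9%). The script was tested on simulated counts. Alternatives used RLE factors, other filters, DESeq2 1.42.0, limma 3.58.1 on log2(FPKM + 1) or log2(FPKM + 0.1), the compared groups alone, accessions summed, and libraries left out. Promoter coordinates are GRCm38.p6, not the mm9 of the counts.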

Additional observations from a re-analysis of the deposited data

How the results depend on the processing

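Calls for Aldh1a1, Aldh1a7 and Aldh1b1 against wild type in IDH2-FLT3 vehicle, and for Aldh1a7 and Aldh1b1 in TET2-FLT3 vehicle, kept their direction and stayed past the threshold under each alternative that gave a value. Members called in IDH2-FLT3 vehicle against wild type ranged from 3 (without V3) to 5 when 1 library was left out. In TET2-FLT3 vehicle against wild type the 2 calls became 1 with the stricter filter, which did not test Aldh1a7, 3 with log2(FPKM + 1), which added Aldh1a1, and 2 to 3 leaving out 1 library (Aldh9a1 was gained without V19). For AG-221 against vehicle the 4 calls became 0 with the compared groups alone, 2 without V3-2 and V5-2, and 2 to 4 leaving out 1 library (2 without V3, V3-2, AG12 or AG13). For AG-221 against wild type the 0 calls became 1 (Aldh1a1) with no filter, DESeq2, either FPKM fit, the compared groups alone, or without V3-2 and V5-2. For 5-Aza against wild type 0 became 1 with log2(FPKM + 1). Between vehicle arms 1 became 0 with the compared groups alone. For the difference of drug responses 0 became 1 with no filter and with DESeq2, and 0 to 1 leaving out 1 library.

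Direction changed only for values that were not called. With log2(FPKM + 1) and log2(FPKM + 0.1), Aldh1a3 and Aldh2 in IDH2-FLT3 vehicle against wild type were -0.019 and -0.11, then -0.10 and -0.11. Aldh2 for 5-Aza against wild type was -0.0687 and -0.0691, and between vehicle arms -0.13 in both; Aldh1a3 for 5-Aza against wild type was -0.024 with the smaller pseudocount. Aldh9a1 in the difference of drug responses was 0.0068 and 0.0070, and 0.037 with the stricter filter. Aldh3a2 for AG-221 against wild type was 0.012 with no filter and 0.0041 with the compared groups alone. Without V3-2 and V5-2, Aldh2 was -0.49 and -0.047 in the IDH2-FLT3 and TET2-FLT3 vehicle arms against wild type, 0.38 and 0.22 for AG-221 and 5-Aza against vehicle, -0.44 between vehicle arms and 0.16 for the difference of responses; Aldh1a3 between vehicle arms was 0.15. Leaving out 1 library, Aldh2 ranged from -0.50 to 0.84 and from -0.017 to 0.61 in the vehicle arms against wild type, -0.92 to 0.40 and -0.43 to 0.22 for AG-221 and 5-Aza against vehicle, -0.22 to 0.045 and -0.019 to 0.28 for AG-221 and 5-Aza against wild type, -0.92 to 0.60 between vehicle arms, and -0.88 to 0.63 for the difference of responses. Aldh1a3 ranged from -0.79 to 0.62 in IDH2-FLT3 vehicle and -0.34 to 0.81 with 5-Aza against wild type. Aldh3a2 ranged from -0.093 to 0.032 and -0.10 to 0.13 for AG-221 and 5-Aza against wild type, and Aldh9a1 from -0.22 to 0.16 for the difference of responses. The cause was not tested.

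Over all accessions, calls with DESeq2 were 1920, 2128, 455, 605, 654, 1122 and 364, beside 1199, 1145, 222, 321, 203, 506 and 27, for TET2-FLT3 vehicle against wild type, AG-221 and 5-Aza against vehicle, both drugs against wild type, the vehicle arms and the difference of responses. With the compared groups alone they were 0 for AG-221 against vehicle and for the difference, 17 between vehicle arms, and 823 and 2157 for AG-221 and 5-Aza against wild type. Without V3-2 and V5-2 they were 265 for AG-221 against vehicle, 187 between vehicle arms and 443 for 5-Aza against wild type. For the difference of responses they were 185 with no filter, 44 with the stricter filter, and 45 and 98 with FPKM. With log2(FPKM + 1), 560 were higher and 2153 lower in IDH2-FLT3 vehicle, beside 1195 and 1233 in the count fit. In TET2-FLT3 vehicle 304 were higher and 1580 lower, beside 524 and 675, and for AG-221 against vehicle 924 and 312, beside 519 and 626. For AG-221 and 5-Aza against wild type FPKM gave 655 and 844, and 508 and 560 with the smaller pseudocount. Leaving out 1 library gave 1261 to 2778 calls for IDH2-FLT3 vehicle and 503 to 1410 for TET2-FLT3 vehicle against wild type, 97 to 2252 for AG-221 and 57 to 241 for 5-Aza against vehicle, 170 to 289 and 73 to 139 for AG-221 and 5-Aza against wild type, 114 to 1656 between vehicle arms and 0 to 644 for the difference of responses. The FPKM scaling moved the median of all accessions to between -0.12 and -0.29 against wild type. Few reads limit Aldh1a2, Aldh1a3 and Aldh7a1. No paired analysis was possible because no label links a library of a group to a library of another group.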
